A study of Mus musculus with 30 samples.

Results

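The 10 genes described here, Atf4, Asns, Atf5, Trib3, Ddit3, Sesn2, Eif4ebp1, Ddit4, Nupr1 and Cebpb, belong to the ATF4 stress response and were chosen by name, as the rows of the 2 count tables that carry these symbols. All 10 were found once among the 14173 genes of each table. They were measured in the livers of 30 male C57BL6/J mice that were 6 months old, with 6 livers for each of 5 diets. The mice arrived at 9 weeks of age and ate a lead-in diet for 2 weeks (20 mice the 20% casein diet and 30 the 20% soy diet). At 12 weeks of age some were switched to the Cas-5%, Soy-10% or Soy-20% + SAA diet, described below. The Cas-20% and Soy-20% mice continued on their lead-in diet, so a switch of diet is part of each comparison of a switched diet with these 2. All were then on the final diet for 12 weeks and were killed after a 4 h fast. The labels give 10 mice per diet, of which 6 are analysed here, and the labels name no treatment other than diet.

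The Cas-20% diet held 20% casein with 0.57 gm% methionine and 0.41 gm% cysteine. The Cas-5% diet held 5% casein, with 0.15 gm% methionine and 0.1 gm% cysteine. The Soy-20% diet held 20% soy protein with 0.22 gm% of each sulfur amino acid, and the Soy-20% + SAA diet was the same amount of soy with free methionine and cysteine added, to 0.58 and 0.41 gm%. The diet called Soy-10% is labelled as 11.5% soy, with 0.13 gm% of each. Casein restriction therefore has a control of the same protein source (Cas-20%), and soy restriction has a control with the sulfur amino acids matched to casein (Soy-20% + SAA) and another without the addition (Soy-20%). Protein and sulfur amino acids fell together in Cas-5% and in Soy-10%, so these comparisons do not separate them.

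ATF4 is a transcription factor made when the translation initiation factor eIF2 is phosphorylated. Kinases that sense uncharged tRNA, unfolded protein in the endoplasmic reticulum, double-stranded RNA or low heme phosphorylate eIF2, general translation slows, and upstream reading frames in the Atf4 mRNA then let its coding frame be read, so ATF4 protein can change without a change of its mRNA. ATF4 binds C/EBP-ATF composite elements together with C/EBP partners and raises genes of amino acid synthesis and uptake, tRNA charging, and feedback on the stress itself. In the liver this response is known for following dietary protein and essential amino acids.

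The composite element is usually written TGATGNAA, and promoters are shown for Asns and Nupr1 because these carried the largest differences between diets and each held these letters. The sequences run 5′ to 3′ on the coding strand over the 250 bases before the RefSeq start site (GRCm38.p6), with the match to TGATGNAA or to its reverse complement TTNCATCA in capitals.
Asns, chr6:7693210-7693459, minus strand: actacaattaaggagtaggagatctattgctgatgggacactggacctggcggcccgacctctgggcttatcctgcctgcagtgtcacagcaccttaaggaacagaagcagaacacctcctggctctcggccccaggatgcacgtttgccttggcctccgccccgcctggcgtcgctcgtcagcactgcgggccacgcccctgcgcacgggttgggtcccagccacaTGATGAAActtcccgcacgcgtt
Nupr1, chr7:126625471-126625720, minus strand: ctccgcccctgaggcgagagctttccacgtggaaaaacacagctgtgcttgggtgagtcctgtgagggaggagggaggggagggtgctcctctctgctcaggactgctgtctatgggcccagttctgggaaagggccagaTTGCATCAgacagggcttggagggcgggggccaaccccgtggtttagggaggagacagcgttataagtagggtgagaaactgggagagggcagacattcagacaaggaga
In Asns the match lies at bases -23 to -16 from the start site, and in Nupr1 on the opposite strand at -110 to -103. The Nupr1 start site of RefSeq lies inside the longer span that the deposited table gives for this gene (chromosome 7, 126623249 to 126630861).

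RefSeq promoter windows, which reach from 250 bases before to 50 bases after a start site, were found for 9 members, all but Eif4ebp1. Of these, 3 held TGATGNAA on either strand, and the third was Trib3, shown with 8 bases on each side (chr2:152344031-152344054, minus strand).
Trib3: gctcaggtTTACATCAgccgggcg
The Trib3 match starts 14 bases after the RefSeq start site. Among all 32851 windows in the table, 3.97% held the motif. The narrower TGATGCAA, whose matches are a part of those of TGATGNAA, was in 0.895% of all windows and in that of 1 member, Nupr1. The endoplasmic reticulum stress element of the unfolded protein response, searched with any bases in its spacer (0.119% of all windows), and the cyclic AMP element TGACGTCA (1.79%), searched on both strands, were in the window of no member. A match says only that the letters are there.

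The counts come from the 3′ ends of mRNAs (Lexogen QuantSeq), 7694015 to 14565542 per liver with a median of 10803734, and normalized counts are these counts divided by the authors' factor for each library. Hepatocyte genes were abundant in every liver (Alb 430400 to 661200 normalized counts). In these bulk samples fewer cells of a type and less RNA per cell cannot be told apart. Livers 3 to 6 of the Soy-20% + SAA diet stood apart: their values rose with the GC content of the 3′ end by 0.0568 to 0.198 log2 units per 10% GC, against slopes of -0.0585 to 0.0239 in the other 26 livers. For the members, and for those gene list results against this control that are given below, calls lost without these 4 livers are given beside the result. Not every list was reported against this control. Among genes of other cell types, the summed bile duct markers (5 of 5 detected, none at 0) reached 266 to 352 in Soy-10%, against 346 to 519 in Soy-20% + SAA and 394 to 548 in Soy-20%, and the summed pancreatic acinar markers (6 of 8 in the table) reached 6910 in 1 Soy-10% liver against 164 to 629 in the livers of the other diets. The part of these in the members' results was not tested.

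Each pair of diets was compared with edgeR's quasi-likelihood test, fitted on all genes of the 12 livers, and a gene was called at a Benjamini-Hochberg adjusted p of 0.05 or less. All 10 members passed the filter on low counts in every comparison. In Cas-5% against Cas-20% 6 members were higher and none was lower, where 24.9% of all genes tested were called (11.6% higher and 13.3% lower). In Soy-10% 4 members were higher and none lower than in Soy-20% + SAA (17.0% of all genes called, 8.51% higher), and 3 were higher than in Soy-20% (0.866% of all genes called, 0.319% higher). The median log2 difference of the 10 members was 0.64, 0.30 and 0.22 in these 3 comparisons, while the median of all genes tested was 0.02, -0.01 and -0.00040. Cas-5% had the highest mean of the 5 diets for 7 members, Soy-10% for Atf4 and Cebpb, and Cas-20% for Ddit4. Tested over all 5 diets at once in 30 livers, 7 members differed (43.4% of all genes did) and Atf4, Ddit3 and Ddit4 did not pass.

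**Figure D1:**
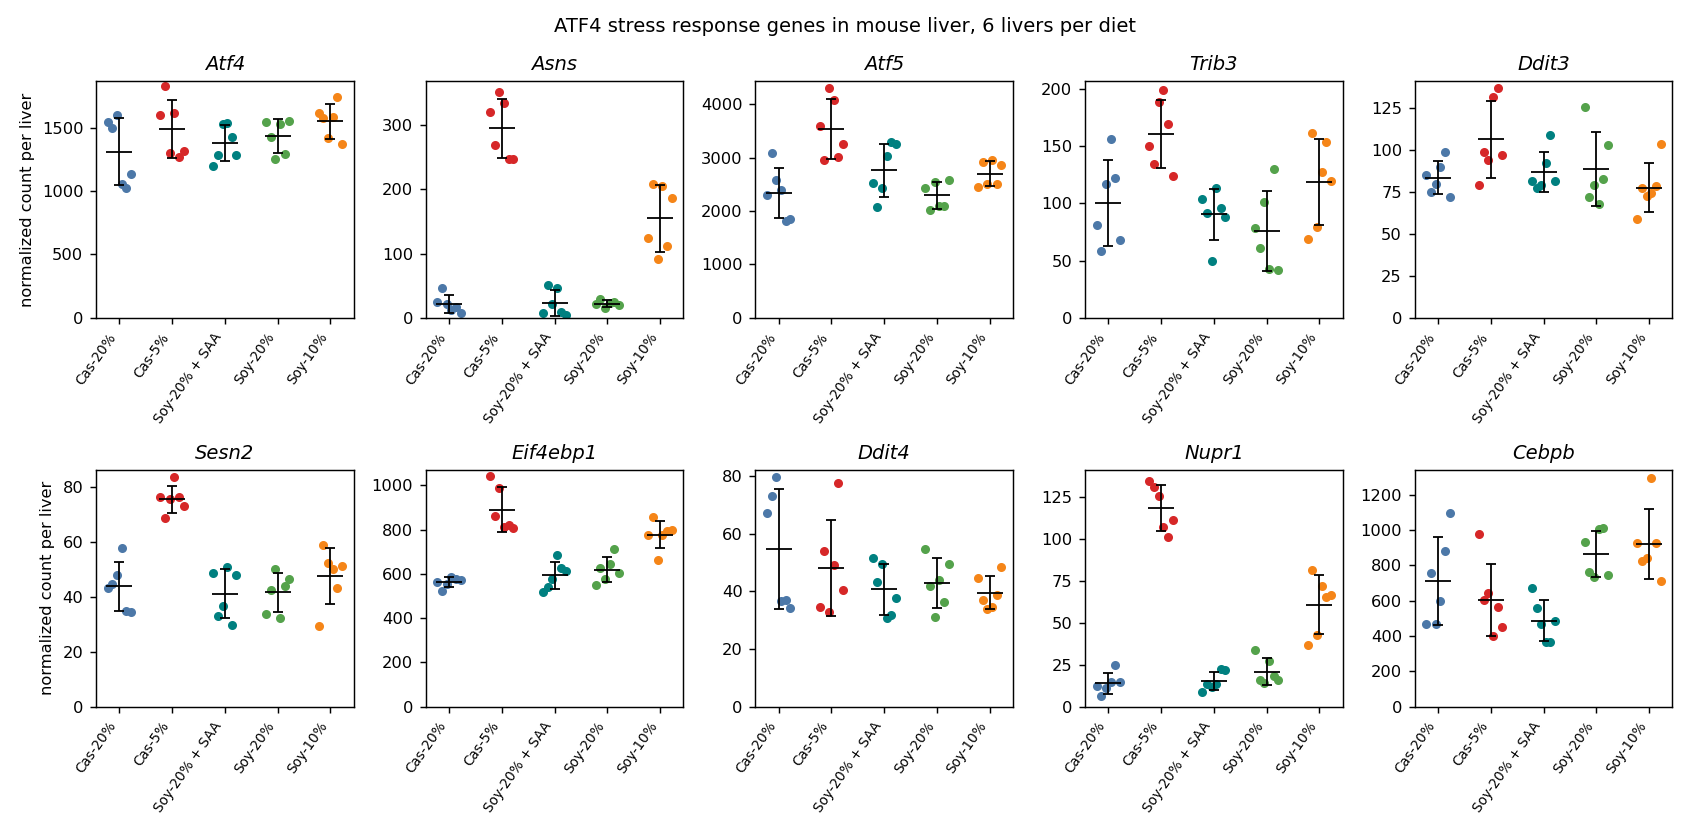
Normalized count of each member (vertical axis, starting at 0) in each of 30 livers, by diet on the horizontal axis; points are livers, and the bar with whiskers is the mean ± SD of 6. Asns and Nupr1 stand clear of every control liver in both restricted diets. Sesn2 (68.6 to 83.6 against at most 58.9 elsewhere) and Eif4ebp1 (808 to 1045 against at most 711 in the control livers) do so in Cas-5% alone. Cebpb is high in Soy-10% and Soy-20%.

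Asns (chromosome 6, 7675169 to 7693254, minus strand) encodes asparagine synthetase, which makes asparagine from aspartate and glutamine and is a textbook target of ATF4. In Cas-20% livers its normalized count was 7.75 at the lowest, 19.2 at the median and 46.6 at the highest. In Cas-5% livers these values were 247, 295 and 351. The 2 diets did not overlap, and Asns rose by 3.76 ± 0.24 (SE) on the log2 scale, or 13.6-fold, with an edgeR adjusted p of 1.283e-08, the 19th smallest p of 12076 genes.

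In the soy control diets Asns was low as well. It was 3.86, 14.8 and 50.8 (lowest, median, highest) in Soy-20% + SAA and 15.1, 21.9 and 29.6 in Soy-20%. In Soy-10% it was 91.0, 155 and 209, so every restricted liver lay above every control liver. The log2 difference was 2.80 ± 0.44 (SE) against Soy-20% + SAA (edgeR adjusted p = 0.0013) and 2.79 ± 0.23 against Soy-20% (edgeR adjusted p = 1.952e-05), and the latter had the smallest p of all 11897 genes in that comparison. The SE was wider against Soy-20% + SAA, where the 6 livers spread over a wider range than those of Soy-20%. In the control livers the count behind Asns was as low as 5 reads, so its fold rests on few control reads.

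Nupr1 (chromosome 7, 126623249 to 126630861, minus strand) encodes a small stress-induced nuclear protein that acts with transcription factors. Its normalized count was 6.08, 13.2 and 24.9 (lowest, median, highest) in Cas-20% and 101, 118 and 134 in Cas-5%. These did not overlap, and Nupr1 rose by 3.09 ± 0.19 (SE) on the log2 scale, or 8.50-fold (edgeR adjusted p = 1.283e-08). In the soy diets it was 8.60, 13.3 and 22.4 in Soy-20% + SAA, 14.1, 17.0 and 33.9 in Soy-20%, and 36.6, 65.7 and 81.5 in Soy-10%. Soy-10% again lay above both controls with no overlap, by 1.98 ± 0.25 log2 units (edgeR adjusted p = 0.00037) and 1.56 ± 0.24 (edgeR adjusted p = 0.0041). The deviating Soy-20% + SAA livers 5 and 6 held 22.4 and 21.6, against 8.60 and 13.2 in livers 1 and 2. Without the 4 deviating livers Nupr1 stayed called and its difference from Soy-20% + SAA was 2.48.

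Trib3 (chromosome 2, 152337422 to 152344032, minus strand) encodes a pseudokinase that binds ATF4 and AKT and restrains ATF4 in a feedback loop. It was 58.8, 98.8 and 156 in Cas-20% and 124, 160 and 199 in Cas-5%, and 3 of the 6 Cas-5% livers lay above the highest control. Trib3 rose by 0.69 ± 0.20 (SE) on the log2 scale (edgeR adjusted p = 0.018). In Soy-10% it was 69.0, 124 and 162, which overlapped both soy controls (49.4 to 113 in Soy-20% + SAA and 42.1 to 130 in Soy-20%). The log2 differences of 0.39 ± 0.22 and 0.64 ± 0.26 did not pass, with edgeR adjusted p of 0.23 and 0.32. The size against Soy-20% was close to that of casein restriction, with a wider error.

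Of the 4 transcription factors, Atf5 passed in casein restriction and Cebpb in soy restriction against Soy-20% + SAA. Atf4 mRNA itself (chromosome 15, 80255184 to 80257541, plus strand) differed little: its mean normalized count was 1311 ± 266 (SD, n = 6) in Cas-20%, 1488 ± 227 in Cas-5%, 1376 ± 143 in Soy-20% + SAA, 1433 ± 134 in Soy-20% and 1552 ± 137 in Soy-10%. The livers of all 5 diets overlapped. The log2 difference was 0.20 ± 0.13 (SE) for casein restriction and 0.17 ± 0.081 and 0.11 ± 0.073 for soy restriction, none of which passed (edgeR adjusted p = 0.29, 0.15 and 0.59). These are mRNA levels, and ATF4 protein was not measured in these files.

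Atf5 (chromosome 7, 44812256 to 44816658, minus strand) encodes a relative of ATF4 that is also translated under eIF2 phosphorylation. It was 1819, 2347 and 3088 in Cas-20% and 2960, 3430 and 4311 in Cas-5%, with 4 of 6 restricted livers above the highest control, and rose by 0.61 ± 0.13 (SE) on the log2 scale (edgeR adjusted p = 0.0021). Soy-10% livers reached 2455, 2681 and 2955. They lay inside the range of Soy-20% + SAA (2067 to 3286; log2 difference -0.04 ± 0.11, edgeR adjusted p = 0.83), while against Soy-20% (2013 to 2588) the difference was 0.23 ± 0.078 (edgeR adjusted p = 0.20). Without the 4 deviating control livers the difference from Soy-20% + SAA was 0.23, of the opposite sign and also not called. The 5′ end of Atf5 shares 571 bases with Nup62 and 272 with Il4i1 on the opposite strand, and whether the counting used strand is not stated.

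Ddit3 (chromosome 10, 127290774 to 127296288, plus strand) encodes CHOP, a C/EBP family factor of prolonged stress. It was 72.0 to 98.6 normalized counts in Cas-20% and 79.1 to 137 in Cas-5%, with 3 of 6 livers above the highest control, and the log2 difference of 0.37 ± 0.14 (SE) just missed the threshold (edgeR adjusted p = 0.0578). The replicate numbers as a block, or leaving out either of 2 single livers (Cas-20% liver 5 or Cas-5% liver 1), brought it under the threshold (edgeR adjusted p = 0.0385 with the block). In Soy-10% it was 58.9 to 104, against 77.3 to 109 and 67.9 to 126 in the controls, and the differences of -0.16 ± 0.13 and -0.18 ± 0.16 did not pass (edgeR adjusted p = 0.40 and 0.70). The last 68 bases of Ddit3 overlap the end of Mars1, the methionyl-tRNA synthetase gene, on the opposite strand.

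Cebpb (chromosome 2, 167688915 to 167690418, plus strand) encodes a C/EBP factor that can pair with ATF4 on composite elements and also serves gluconeogenesis and the acute phase. It was 469, 677 and 1094 in Cas-20% and 400, 582 and 976 in Cas-5%, which overlapped (log2 difference -0.22 ± 0.22, edgeR adjusted p = 0.52). In the soy diets the order was different: Soy-10% livers held 712, 883 and 1295 and Soy-20% livers 732, 846 and 1012, against 364, 478 and 671 in Soy-20% + SAA. Cebpb was 0.92 ± 0.16 higher on the log2 scale in Soy-10% than in Soy-20% + SAA (edgeR adjusted p = 0.0026) and did not overlap, but Soy-10% and Soy-20% differed by 0.09 ± 0.13 (edgeR adjusted p = 0.85).

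The Cebpb result moved with the deviating control livers. The last 200 bases of its longest annotated transcript hold 25% GC, less than in all but 2.53% of genes. The other 9 members hold 41.5% to 53.5%, and the highest of these, Nupr1, lies above 92.1% of genes. Livers 1 and 2 of Soy-20% + SAA had 671 and 560 normalized counts and livers 3 to 6 had 364 to 486. Without livers 3 to 6 the difference from Soy-10% was 0.57 on the log2 scale and no longer called (edgeR adjusted p = 0.12), and with the GC slope of each library as a covariate Cebpb stayed called. The plot of member levels against GC slope shows these livers. Cebpb also overlaps 908 bases of Tmem189 on the opposite strand.

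**Figure D2:**
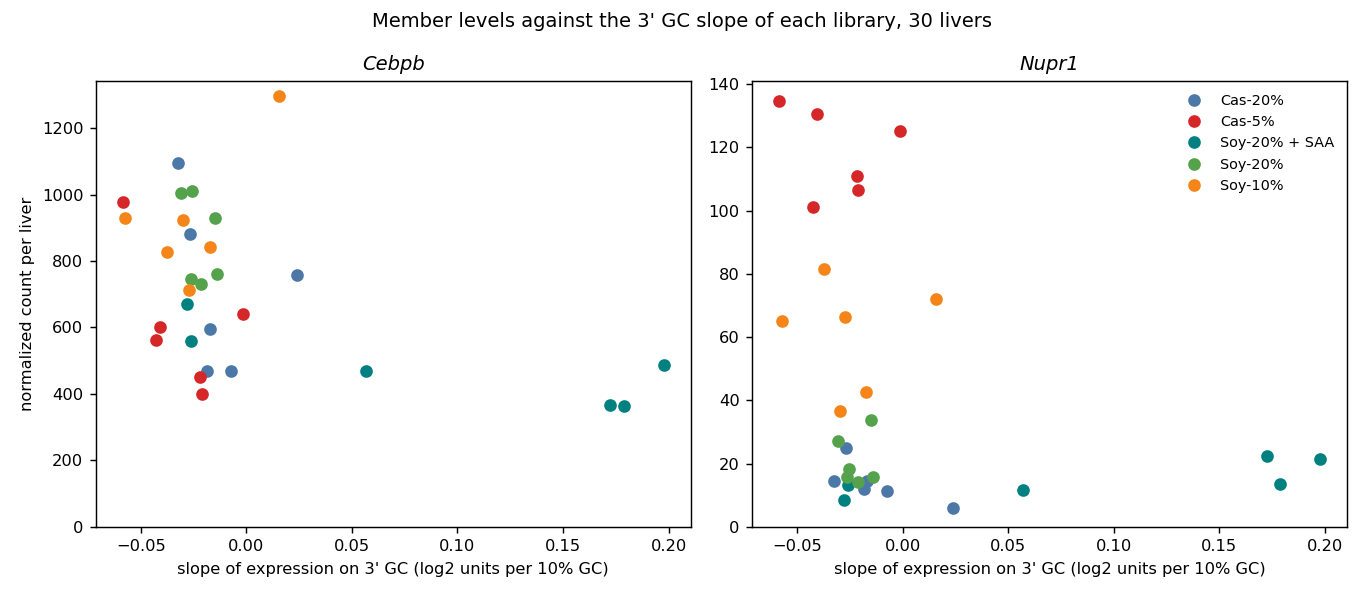
Normalized count of Cebpb (left) and Nupr1 (right) against the slope of expression on 3′ GC content in each library, in log2 units per 10% GC; points are 30 livers coloured by diet. The 4 Soy-20% + SAA livers to the right of 0.05 hold 364 to 486 Cebpb counts, below the 560 and 671 of the other livers on that diet; Nupr1 is 11.6 to 22.4 in these 4 and 8.60 and 13.2 in the other livers.

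Sesn2, Ddit4 and Eif4ebp1 act on growth signalling through mTORC1, the kinase complex that promotes protein synthesis when amino acids are plentiful. Sesn2 (chromosome 4, 132492032 to 132510501, minus strand) encodes sestrin 2, a leucine-binding inhibitor of the amino acid arm of mTORC1. It was 34.3, 43.8 and 57.9 in Cas-20% and 68.6, 75.9 and 83.6 in Cas-5%, with no overlap, and rose by 0.80 ± 0.13 (SE) on the log2 scale, or 1.74-fold (edgeR adjusted p = 0.00023). Soy-10% livers held 29.4, 50.7 and 58.9, which covered the range of both soy controls (29.8 to 50.8 and 32.4 to 50.2). The differences of 0.21 ± 0.18 and 0.20 ± 0.16 did not pass (edgeR adjusted p = 0.45 and 0.69). In GENCODE M21, Sesn2 shares 6089 bases with Gm12981, which is annotated on the same strand and has no row of its own in the deposited table.

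Eif4ebp1 (chromosome 8, 27260329 to 27276674, plus strand) encodes 4E-BP1, which holds back cap-dependent translation when mTORC1 is inactive. It was 521, 567 and 585 in Cas-20% and 808, 842 and 1045 in Cas-5%, with no overlap, and rose by 0.68 ± 0.075 (SE) on the log2 scale, or 1.60-fold (edgeR adjusted p = 6.112e-06). In Soy-10% it was 664, 785 and 856, against 520, 594 and 683 in Soy-20% + SAA and 552, 616 and 711 in Soy-20%, and 5 of 6 restricted livers lay above every liver of each control. The differences were 0.39 ± 0.081 (edgeR adjusted p = 0.0071) and 0.33 ± 0.071 (edgeR adjusted p = 0.039). The second was near the threshold: it was lost without any one of 10 of the 12 livers (adjusted p up to 0.11) and with the GC slope as a covariate (0.053).

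Ddit4 (chromosome 10, 59949669 to 59951834, minus strand) encodes REDD1, an inhibitor of mTORC1 that also answers to glucocorticoids and low oxygen. Its livers ranged from 34.3 to 79.8 in Cas-20%, 33.0 to 77.8 in Cas-5%, 30.7 to 51.6 in Soy-20% + SAA, 31.2 to 54.6 in Soy-20% and 33.9 to 48.4 in Soy-10%. All overlapped, and the restriction differences of -0.16 ± 0.25, -0.04 ± 0.16 and -0.12 ± 0.15 on the log2 scale did not pass (edgeR adjusted p = 0.69, 0.88 and 0.84). The SD was 20.8 and 16.6 in the casein diets and 5.84 to 8.83 in the soy diets.

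**Figure D3:**
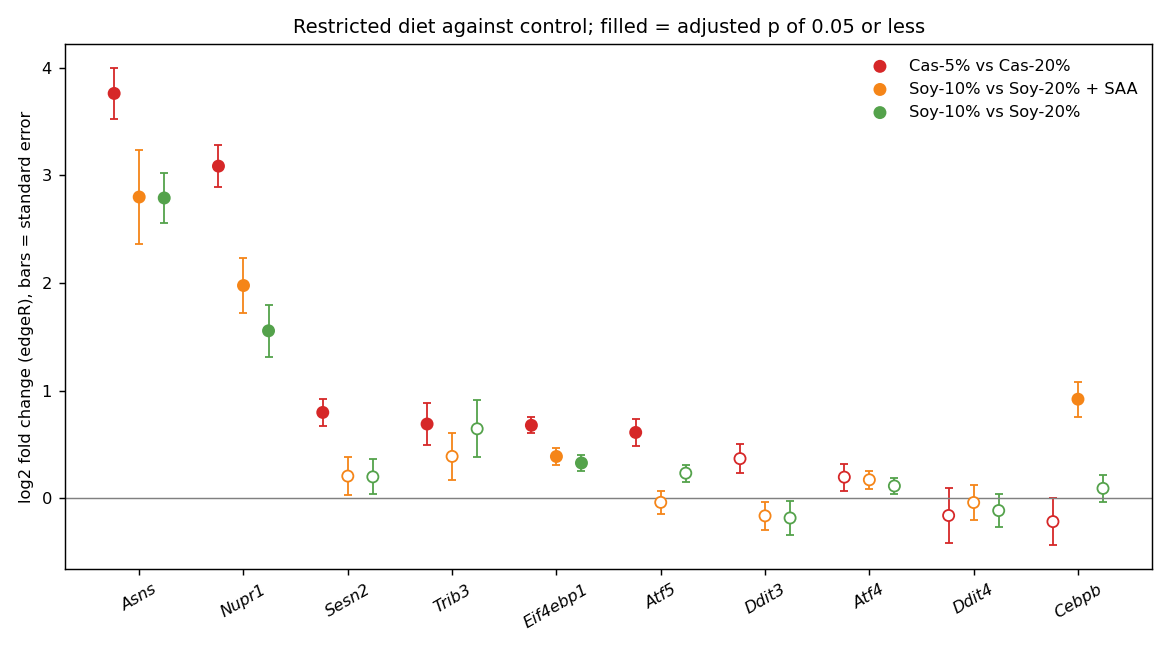
Log2 fold change of each member (vertical axis) with its standard error for casein restriction (red) and for soy restriction against Soy-20% + SAA (orange) or Soy-20% (green), 12 livers per comparison; members are ordered by the casein value and filled points passed an adjusted p of 0.05. Asns and Nupr1 lead in all 3, from 3.76 down to 1.56, and the remaining points lie between -0.22 and 0.92.

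Livers that did not overlap between the 2 diets were seen for 4 members in casein restriction (Asns, Nupr1, Sesn2 and Eif4ebp1), where 12.9% of all genes did not overlap. In soy restriction there were 3 against Soy-20% + SAA (Asns, Nupr1 and Cebpb; 6.22% of all genes) and 2 against Soy-20% (Asns and Nupr1; 1.34%). The soy comparisons share the Soy-10% livers.

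The 2 restricted diets were compared with each other directly, without any of the Soy-20% + SAA livers. Of the 10 members 5 were higher in Cas-5% than in Soy-10% and 1 was lower, where 10.7% of all genes were called (4.59% higher and 6.14% lower). Asns differed by 0.94 ± 0.17 (SE) on the log2 scale, or 1.92-fold (edgeR adjusted p = 0.0018). Nupr1 differed by 0.96 ± 0.16, or 1.95-fold (edgeR adjusted p = 0.00062). Asns, Nupr1, Sesn2 and Atf5 did not overlap between the diets (5.86% of all genes did not).

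Sesn2 was 0.68 ± 0.13 higher in Cas-5% (edgeR adjusted p = 0.0027) and Atf5 0.41 ± 0.092 higher (edgeR adjusted p = 0.0082). Ddit3 was 0.48 ± 0.15 higher (edgeR adjusted p = 0.043) and Cebpb was lower, at -0.59 ± 0.17 (edgeR adjusted p = 0.037). These last calls were near the threshold: that of Ddit3 was lost without any one of 8 of the 12 livers and that of Cebpb without any one of 9, with adjusted p up to 0.10 and 0.083. Trib3 (0.46 ± 0.18), Eif4ebp1 (0.21 ± 0.078), Ddit4 (0.31 ± 0.19) and Atf4 (-0.04 ± 0.090) did not pass (edgeR adjusted p = 0.11, 0.090, 0.34 and 0.81). Sulfur amino acids were closely matched, at 0.15 gm% methionine and 0.1 gm% cysteine in Cas-5% and 0.13 gm% of each in Soy-10%. The diets differ in protein source and in protein content, which cannot be told apart here. Markers of other cell types also differed between these livers. The summed stellate cell markers (5 of 5 detected, none at 0) were 783 to 1106 in Cas-5% and 611 to 781 in Soy-10%, the summed bile duct markers 367 to 510 and 266 to 352, and the 1 detected adipocyte marker (of 4) 14.4 to 25.7 and 89.7 to 301. The other adipocyte markers were not among the genes counted, so this 1 gene does not show a difference in adipocytes. Their part in the members' differences was not tested.

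Whether casein restriction changed a member more than soy restriction did was tested as the difference of the 2 effects in 24 livers, with Soy-20% + SAA as the soy control. It was called for 3 members, where 8.69% of all genes were called (3.20% positive and 5.49% negative). The difference was 0.64 ± 0.18 (SE) log2 units for Atf5 (edgeR adjusted p = 0.027), 1.11 ± 0.35 for Nupr1 (edgeR adjusted p = 0.047) and -1.14 ± 0.30 for Cebpb (edgeR adjusted p = 0.020). None of the 3 was called with the GC slope as a covariate, nor without the 4 deviating livers, where they were 0.38, 0.60 and -0.80. When Soy-20% took the place of the soy control, Nupr1 was called at 1.52 and Eif4ebp1 at 0.34 (edgeR adjusted p = 0.044), whereas Atf5 (0.37) and Cebpb (-0.32) were not. For Asns the difference was 0.95 ± 0.56 (edgeR adjusted p = 0.29), for Sesn2 0.59 ± 0.22 (0.090) and for Ddit3 0.52 ± 0.19 (0.084). It was 0.02 ± 0.16 for Atf4, 0.29 ± 0.32 for Trib3, 0.28 ± 0.11 for Eif4ebp1 and -0.13 ± 0.32 for Ddit4 (edgeR adjusted p = 0.95, 0.60, 0.097 and 0.84).

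**Figure D4:**
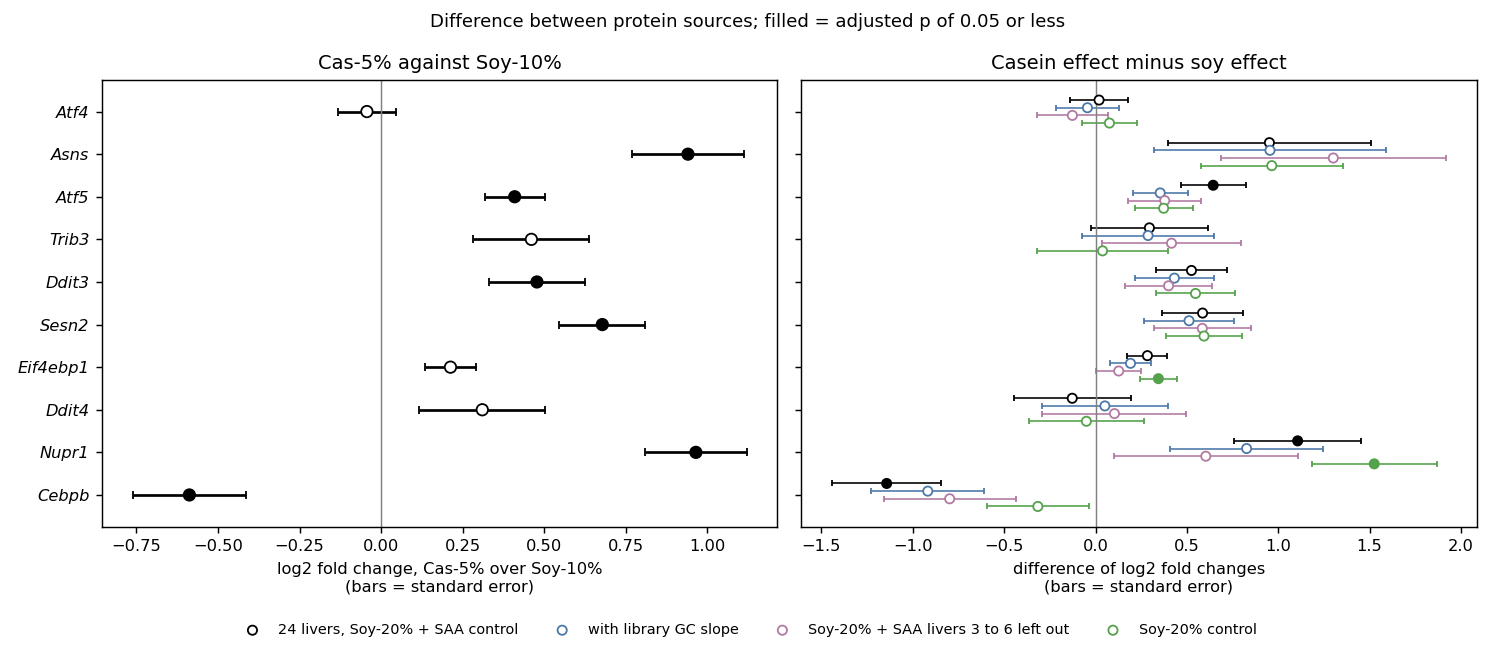
Left, log2 fold change of Cas-5% over Soy-10% with its standard error (12 livers); right, the casein effect minus the soy effect under 4 settings (24 livers, 20 where 4 are left out), with filled points at an adjusted p of 0.05 or less. On the left 6 members are filled, with Nupr1 at 0.96 and Cebpb at -0.59; on the right Nupr1 is filled with either soy control and with neither of the other settings.

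The control diets were compared with each other to see what sulfur amino acids and protein source did where protein was not restricted. Between Soy-20% and Soy-20% + SAA edgeR called no member and 0.00838% of all genes, which is 1 gene. At an unadjusted p under 0.05 there were 2 members, Atf5 (-0.26 ± 0.11 log2 units, edgeR adjusted p = 0.18) and Cebpb (0.84 ± 0.15, edgeR adjusted p = 0.055), and 2892 of all 11932 genes. Cebpb was also the 1 member whose livers did not overlap between these diets (2.04% of all genes did not). DESeq2 called 1 member, Cebpb. Both values shrank without the 4 deviating livers, to 0.49 for Cebpb (edgeR adjusted p = 0.64) and -0.0037 for Atf5, and Cebpb was at 0.55 with the GC slope as a covariate (edgeR adjusted p = 0.38). Asns was level at 0.0040 ± 0.47 with a wide error, and Nupr1 differed by 0.44 ± 0.28 (edgeR adjusted p = 0.36), or by 0.92 without the deviating livers and 0.97 with the covariate, neither of them called. Trib3 was at -0.24 ± 0.27 (edgeR adjusted p = 0.60), and Atf4, Ddit3, Sesn2, Eif4ebp1 and Ddit4 lay between 0.02 and 0.08 (edgeR adjusted p of 0.62 to 0.96). Methionine in Soy-20% lay between that of Soy-20% + SAA and that of Soy-10%, and the Asns range of 15.1 to 29.6 lay within that of Soy-20% + SAA.

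Between Cas-20% and Soy-20% + SAA, which are matched for sulfur amino acids, edgeR called no member and 2.43% of all genes. At an unadjusted p under 0.05 there was 1 member, Cebpb (0.55 ± 0.21, edgeR adjusted p = 0.13), and 3143 of all 11988 genes. DESeq2 called no member. The largest of the others was Ddit4 at 0.43 ± 0.24 (edgeR adjusted p = 0.26). Asns differed by -0.03 ± 0.56 and Nupr1 by -0.14 ± 0.31. Atf5 was at -0.24 ± 0.14 and Trib3 at 0.16 ± 0.24 (edgeR adjusted p = 0.30 and 0.71), and Atf4, Ddit3, Sesn2 and Eif4ebp1 lay between -0.08 and 0.09.

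Other ATF4 targets were followed in a list of 50 genes that holds none of the 10 members. In casein restriction 25 rose and 5 fell of the 47 tested (63.8% called, against 24.9% of all genes). The median log2 difference was 0.37 against 0.02 for all genes. Psat1 of serine synthesis rose from 4.58 ± 1.65 to 151 ± 16.3 normalized counts (SD, n = 6; log2 difference 5.02 ± 0.17 SE, edgeR adjusted p = 1.305e-11). Mthfd2 of mitochondrial folate metabolism (2.41 ± 0.13), the glycine transporter gene Slc6a9 (1.09 ± 0.084) and Ndrg1 (1.15 ± 0.090) had the next smallest p. The 5 that fell, named here after their values were seen, were Got1, Cth, Gpt2, Hmox1 and Shmt2. Of these, Got1 and Gpt2 encode transaminases and Cth the enzyme that makes cysteine from cystathionine.

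In Soy-10% against Soy-20% + SAA 9 of 44 listed genes rose and 5 fell (31.8% called, against 17.0% of all genes). Their median was 0.11 against -0.01 for all genes. Psat1 (3.60 ± 0.40), the hormone gene Fgf21 (2.67 ± 0.39) and Psph of serine synthesis (0.92 ± 0.14) rose, and Atf3, a stress-induced relative of ATF4, fell from 19.0 ± 6.37 to 7.05 ± 1.96 normalized counts (SD, n = 6). Without the 4 deviating livers, which leaves livers 1 and 2 of this control, 1 of the 45 tested was called, Psat1 (3.30). Among all genes 317 were called in that setting. Fgf21 (1.92, edgeR adjusted p = 0.069) and Psph (0.78, edgeR adjusted p = 0.072) lost their calls. The estimates moved both ways, as for Vldlr (1.04 to 1.46) and Xpot (0.61 to 0.19), which also lost their calls. With the GC slope as a covariate 7 rose and none fell, where 389 of all genes were called. Fgf21 (1.76, edgeR adjusted p = 0.020) and Psph (0.74, edgeR adjusted p = 0.031) were among the 7. Against Soy-20% 2 of 43 rose, Psat1 (2.87 ± 0.36) and Fgf21 (2.10 ± 0.32), and none fell (4.65% called, against 0.866% of all genes).

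Between the restricted diets 19 of 46 listed genes were higher in Cas-5% and 2 lower (45.65% called, against 10.7% of all genes). Phgdh, the first enzyme of serine synthesis, was 37.8 ± 16.9 normalized counts in Cas-5% and 2.90 ± 2.09 in Soy-10% (SD, n = 6; log2 difference 3.57 ± 0.42 SE). The cysteinyl-tRNA synthetase gene Cars (0.56 ± 0.076) and the amino acid transporter genes Slc1a4 (1.12 ± 0.16) and Slc7a1 (1.40 ± 0.21) were also higher. For the difference of the casein and soy effects 9 listed genes were called positive and 2 negative of 47 (23.4%, against 8.69% of all genes). Without the deviating livers these were 3 and 2 of 48, where 296 of all genes were called. Between Soy-20% and Soy-20% + SAA edgeR called none of 42, and DESeq2 called 3. There 10 of the 42 were at an unadjusted p under 0.05, as were 2892 of all 11932 genes. Between Cas-20% and Soy-20% + SAA edgeR called 1 of 42 (2.43% of all genes). This was Slc6a9, lower in Cas-20% at -0.63 ± 0.11 on the log2 scale. The Slc6a9 call was lost without the 4 deviating livers (-0.47, edgeR adjusted p = 0.57) and with the GC slope as a covariate (-0.49, edgeR adjusted p = 0.21).

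The machinery upstream of ATF4 was followed at the mRNA level. The list held genes for eIF2 subunits, kinases, phosphatases and exchange factors, and others such as Abcf1 and Abcf3. Of the 18 tested, 1 was called in casein restriction (5.56%, against 24.9% of all genes). It was the eIF2 beta subunit gene Eif2s2 (0.56 ± 0.097, edgeR adjusted p = 0.00046). The amino acid sensing kinase gene Eif2ak4 was 0.26 ± 0.11 higher there without passing (0.094), and was higher in Cas-5% than in Soy-10% by 0.36 ± 0.11 (edgeR adjusted p = 0.040), the 1 gene of the list called in that comparison. In Soy-10% against Soy-20% + SAA 2 were called higher (Ppp1r15b and Eif2b1) and 2 lower (Abcf1 and Eif2b2), which is 22.2% against 17.0% of all genes. These calls moved with the deviating control livers: edgeR called none without those 4 livers (2 at an unadjusted p under 0.05) and none with the GC slope as a covariate (1). Ppp1r15b, a phosphatase subunit gene, was 449.9 ± 267 normalized counts in Soy-20% + SAA (SD, n = 6) and 835 to 938 on average in the other 4 diets, and its log2 difference of 1.06 became 0.28 without the 4 livers. Against Soy-20% edgeR called none of the list (2 at an unadjusted p under 0.05, as were 1460 of all 11897 genes).

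Of 20 genes of the unfolded protein response, which responds to stress of the endoplasmic reticulum, 2 rose and 1 fell in casein restriction, which is 15% of them against 24.9% of all genes. The degradation factor gene Derl3 rose by 2.13 ± 0.30 and the co-chaperone gene Dnajc3 by 0.36 ± 0.085, while Edem1 had a log2 difference of -0.47 ± 0.087. Derl3 was the 1 listed gene called in Soy-10% against Soy-20% (1.66 ± 0.33, edgeR adjusted p = 0.022), and Sdf2l1 the 1 called against Soy-20% + SAA (0.76 ± 0.22; 0.48 and not called without the 4 deviating livers). Between Cas-5% and Soy-10% edgeR called none (2 at an unadjusted p under 0.05, as were 3006 of all 12041 genes).

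Paralogs of the members were followed as well. Of 15 tested paralogs 1 rose and 4 fell in casein restriction (33.3%, against 24.9% of all genes). Cebpg, a partner of ATF4, rose (0.63 ± 0.075), while Sesn3 (-0.91 ± 0.11), Cebpa (-0.56 ± 0.068) and Trib1 (-0.64 ± 0.10) were among those that fell. In Soy-10% against Soy-20% + SAA 2 rose and 4 fell (40%, against 17.0% of all genes), and Sesn3 fell again (-0.54 ± 0.090). Without the deviating livers, however, none of 14 was called (2 at an unadjusted p under 0.05), and with the GC slope as a covariate Sesn3 alone was. Against Soy-20% edgeR called none of 14 (3 at an unadjusted p under 0.05, as were 1460 of all 11897 genes). Of 18 genes of the mTORC1 pathway 3 rose and 1 fell in casein restriction, 22.2% of them and so close to the 24.9% of all genes, with the smallest p for the inhibitor gene Deptor (0.40 ± 0.063).

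Some members also answer to fasting hormones or p53. Of 14 glucocorticoid and fasting genes 5 rose and 3 fell in casein restriction (57.1% called, against 24.9% of all genes). Igfbp1 was up by 2.03 ± 0.28 and Tat was at -1.63 ± 0.26, and the median of the list was -0.0050. In Soy-10% none rose and 2 fell against Soy-20% + SAA (14.3%, against 17.0% of all genes). Without the 4 deviating livers 1 rose, Angptl4, and 1 fell, Mt1, where 317 of all genes were called. Against Soy-20% edgeR called none (3 at an unadjusted p under 0.05, as were 1460 of all 11897 genes). Of 9 p53 targets tested 2 rose and 1 fell in casein restriction (33.3%, against 24.9% of all genes). The gene that fell was Bbc3 (-0.90 ± 0.20). In Soy-10% against Soy-20% + SAA 1, Bbc3 again, fell (11.1%, against 17.0% of all genes). Its log2 difference of -0.57 became -0.53 without the 4 livers, and that call was lost (edgeR adjusted p = 0.13). With the GC slope as a covariate Bbc3 stayed called (-0.59, edgeR adjusted p = 0.042).

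Over the 30 livers the members whose log2 values ran together were Eif4ebp1 and Nupr1 (Pearson r = 0.91), Asns and Eif4ebp1 (0.85) and Asns and Nupr1 (0.83). These points share diets, and with the diet means removed the same pairs were at 0.40, 0.15 and -0.21, and all 45 pairs lay between -0.48 and 0.45. Among 11992 genes the one most like Asns was Psat1 (r = 0.91), followed by Slc7a7, Epb41l1, Abca8b and Mthfd2 (0.90 to 0.88). Psat1 (0.94) and Mthfd2 (0.91) were also the closest to Nupr1. The closest to Atf5 was the amino acid transporter gene Slc3a2 (0.84), the closest to Atf4 were Tuba4a (0.73) and Tmed9 (0.72), and Cebpb was nearest to Rer1 (0.83). For Atf4 the tubulin gene Tuba4a (0.79) and the tyrosyl-tRNA synthetase gene Yars (0.77) were the nearest with the diet means removed. These correlations are across 30 livers of shared diets and are given as descriptions.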

How the data were processed

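RNA of 30 livers was made into 3′ mRNA libraries (Lexogen QuantSeq) and sequenced on a NextSeq 500. The authors produced the counts with the QuantSeq pipeline 2.3.6. The submitters' notes name GRCm38 (mm10), R 4.0.3 and DESeq2 1.30, while aligner and annotation release are not given in the sources used here. The deposited count table holds whole reads per gene, and the deposited normalized table (a signal) holds these counts divided by 1 factor per library. Every gene had a total of at least 90 counts. Library totals were 7694015 to 14565542.

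Groups follow the labels, and mice are replicates. Counts were tested in edgeR 4.0.16 (R 4.3.3; TMM, filterByExpr with a minimum count of 10, quasi-likelihood F test) with Benjamini-Hochberg adjustment over all genes tested, after tests on simulated data. Spread is the SD of normalized counts and SE that of the log2 difference. Correlations used log2(normalized count + 1). GC slopes used the last 200 bases of the longest GENCODE M21 transcript for 11927 genes. For 1684 of the 1718 genes with no symbol, one was taken from GENCODE. Alternatives were DESeq2 1.42.0, RLE scaling, no filter, a replicate block, 1 fit over 30 livers, a GC covariate, the 4 deviating livers left out, Soy-20% as soy control, and each liver left out. The members and lists were chosen with earlier results of these data known. Members were named by rule, with up to 4 genes per list by smallest adjusted p and up to 5 neighbours per member; other list genes named in the text (such as those that fell in casein restriction or lost a call) were chosen after their values were seen.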

Additional observations from a re-analysis of the deposited data

Results flagged for a closer look

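Cebpb in Soy-10% liver 4 stood far from the other livers of its diet, at 1295 normalized counts, where the next was 929 and the lowest 712. It was the 1 such value among 50 tests of a member within a diet, and chance alone marks about 1 in 20. Leaving it out, Cebpb stayed higher in Soy-10% than in Soy-20% + SAA (0.80 on the log2 scale) and lost its call against Cas-5% (-0.47).

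The effect of casein restriction differed from that of soy restriction, by a test of the difference itself with Soy-20% + SAA as the soy control, for Atf5 (0.6437 log2 units, edgeR adjusted p = 0.0269), Nupr1 (1.106, edgeR adjusted p = 0.0471) and Cebpb (-1.143, edgeR adjusted p = 0.0204). The 3′ GC slope of 4 Soy-20% + SAA livers moves with these (its part was not tested), and none of the 3 was called without those livers. For Nupr1 the call was also lost without any one of 17 of the 24 livers, and for Atf5 without Soy-20% + SAA liver 5.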

How the results depend on the processing

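Of 1430 values of single members under the alternatives, 1291 kept direction and call, 60 lost and 12 gained a call, and 67 changed sign, none of which was called before. With all livers kept, members called in casein restriction stayed at 6 or 7, against Soy-20% + SAA at 4 (3 without Soy-20% + SAA livers 3 to 6), against Soy-20% at 3 (2 with the GC covariate), and for Cas-5% against Soy-10% at 5 or 6 (Cebpb was lost with DESeq2 and with the fit over 30 livers, Ddit3 with no filter and with the GC covariate).

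DESeq2 called 217 genes for Soy-10% against Soy-20% (103 with edgeR), 873 genes and 1 member for Soy-20% against Soy-20% + SAA (1 gene and 0 members), and 1108 genes for Cas-20% against Soy-20% + SAA (291). RLE scaling and no filter each called 2 genes between the unrestricted soy diets. The fit over 30 livers called 3077 genes for Soy-10% against Soy-20% + SAA (2035), 62 against Soy-20%, 1793 and 1 member between the unrestricted soy diets, and 2331 for Cas-20% against Soy-20% + SAA. With the GC covariate, and without the 4 livers, genes called were 389 and 317 for Soy-10% against Soy-20% + SAA, 0 and 0 between the unrestricted soy diets, 5 and 3 for Cas-20% against Soy-20% + SAA, 563 and 296 for the difference of effects (1089), where members called were 0 and 0, and 3555 and 3433 over all diets (5450).

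The replicate numbers did not pair the livers: of 60 same-numbered pairs 10 correlated above 0.1 (-0.19 to 0.24, median 0.0105). In 11 of these 60 pairs the liver of the first diet correlated best with its own number in the second. The replicate block called 141 genes for Cas-20% against Soy-20% + SAA, added Ddit3 in casein restriction (0.35, edgeR adjusted p = 0.0385) and turned Asns between Cas-20% and Soy-20% + SAA to 0.086. It changed no other call of a member.

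Signs that changed, all of uncalled values, were as follows with the GC covariate and without the 4 livers. For Soy-10% against Soy-20% + SAA, Atf5 was 0.25 and 0.23. Between the unrestricted soy diets Asns was -0.32 and -0.35 (-0.038 with DESeq2, -0.0032 with RLE scaling), Ddit4 -0.19 and -0.15, and Atf5 0.0089 with the covariate. Between Cas-20% and Soy-20% + SAA Atf4 was 0.031 and 0.075, Atf5 0.048 and 0.022, Ddit3 0.050 and 0.070, Eif4ebp1 0.042 and 0.078, and Nupr1 0.25 and 0.35. For the difference of effects Atf4 was -0.044 and -0.13 and Ddit4 0.051 and 0.10.

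Leaving out 1 liver at a time, genes called ranged from 1219 to 3119 for Soy-10% against Soy-20% + SAA (lowest when liver 5, and highest when liver 1, of that control was dropped), 50 to 146 against Soy-20% (without Soy-10% liver 5, and Soy-20% liver 3), 0 to 1587 with 0 to 1 members between the unrestricted soy diets (highest without Soy-20% + SAA liver 1), 9 to 1817 with 0 to 1 members for Cas-20% against Soy-20% + SAA (livers 6 and 1 of Soy-20% + SAA dropped), and 719 to 1941 with 1 to 4 members for the difference of effects (livers 4 and 1 of Soy-20% + SAA dropped for the genes, 5 and 1 for the members). Members called ranged from 6 to 7 in casein restriction, stayed at 4 for Soy-10% against Soy-20% + SAA, and ranged from 2 to 3 against Soy-20% and 4 to 6 for Cas-5% against Soy-10%. Uncalled members that changed sign ranged as follows: Atf5 -0.10 to 0.016 and Ddit4 -0.11 to 0.040 for Soy-10% against Soy-20% + SAA; Cebpb -0.031 to 0.15 against Soy-20%; Asns -0.25 to 0.39, Ddit3 -0.094 to 0.10 and Sesn2 -0.065 to 0.081 between the unrestricted soy diets; Asns -0.42 to 0.35, Trib3 -0.013 to 0.26, Ddit3 -0.12 to 0.012, Sesn2 -0.0087 to 0.15 and Nupr1 -0.40 to 0.0044 between Cas-20% and Soy-20% + SAA; Atf4 -0.048 to 0.085 and Ddit4 -0.33 to 0.011 for the difference of effects. Single livers left out of the test over all 5 diets were not run. The causes of these changes were not tested. Depth limits Asns and Nupr1 in the control livers, where counts were as low as 5 and 6.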
